A study of Homo sapiens with 16 samples.

Results

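T288P+GDF11 cultures carried the T288P allele of PCSK5 and received recombinant GDF11, and M452I cultures carried the M452I allele and received no GDF11. The contrast of these conditions was chosen by the condition named in each library's title, which took 8 of the 16 libraries, 4 wells in each group, and it was read across all genes. All cells were MCF10DCIS.com, a human breast line derived from MCF10A that forms lesions like ductal carcinoma in situ, and all came from 1 clone whose PCSK5 was knocked out with Cas9 and a guide to exon 4. The T288P+GDF11 wells held the polyclonal line with the T288P allele, with 250 ng/ml mature GDF11 present for the whole culture. The M452I wells held the polyclonal line with the M452I allele. Both alleles were resistant to the guide, V5-tagged and under a tetracycline-regulated promoter, both lines were selected with hygromycin, and all wells grew in 3 dimensions with matrigel. Doxycycline was given at 1 µg/ml starting on day 4, and cells were collected on day 8. Untreated T288P wells and wells with the wildtype allele (WT), 4 each and otherwise grown the same way, serve as context.

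PCSK5 is a proprotein convertase, an enzyme of the secretory pathway that cuts precursors of secreted proteins, the GDF11 precursor among them. Mature GDF11 belongs to the ligands of the TGF-beta family. It binds activin-type receptors, which phosphorylate SMAD2 and SMAD3, and these enter the nucleus with SMAD4 and change transcription. In mammary and skin epithelium, signalling of this kind is known for effects on extracellular matrix, adhesion, differentiation and growth. Recombinant mature GDF11 does not need cleavage by PCSK5.

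The contrast crosses an allele with a ligand, so the difference between the lines and the difference in GDF11 cannot be told apart within it. Each allele is represented by 1 line, and the wells are separate cultures of that line, so p-values measure the spread between wells. The reference coding sequence around each substituted residue is shown to place the alleles, with the substituted codon in capitals. It is that of PCSK5 on chromosome 9 (GENCODE release 29, GRCh38, ENST00000545128), codons 280 to 296 for the residue changed in T288P and codons 444 to 460 for the residue changed in M452I.
T288P site: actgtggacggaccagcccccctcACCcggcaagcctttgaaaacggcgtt
M452I site: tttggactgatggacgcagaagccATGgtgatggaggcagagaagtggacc
The capitals are the wildtype codons, for threonine in the sequence named T288P and for methionine in the sequence named M452I. The sequences of the introduced constructs were not used here.

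Library totals were 29.5 to 42.5 M counts in T288P+GDF11 and 29.7 to 50.8 M in M452I. M452I replicate 4 stood apart from its group. On the first principal component of log2 CPM (counts per M counts of a library), which held 27.1% of the variance, the T288P+GDF11 wells scored 44.1 to 63.6. M452I replicates 1 to 3 scored -44.7 to -32.9, and M452I replicate 4 scored 37.5. Its log2 CPM correlated at 0.9675 to 0.9714 with the T288P+GDF11 wells and at 0.9581 to 0.9624 with the other M452I wells. Ribosomal protein genes took 10.69% to 12.52% of the counts in T288P+GDF11, 12.68% to 13.01% in M452I replicates 1 to 3 and 9.281% in replicate 4. Gene values tested and counts of called list members are therefore given with all M452I wells and without replicate 4, and where only group means and a log2 fold change stand in brackets they are those with all wells. What set this well apart was not tested.

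**Figure D1:**
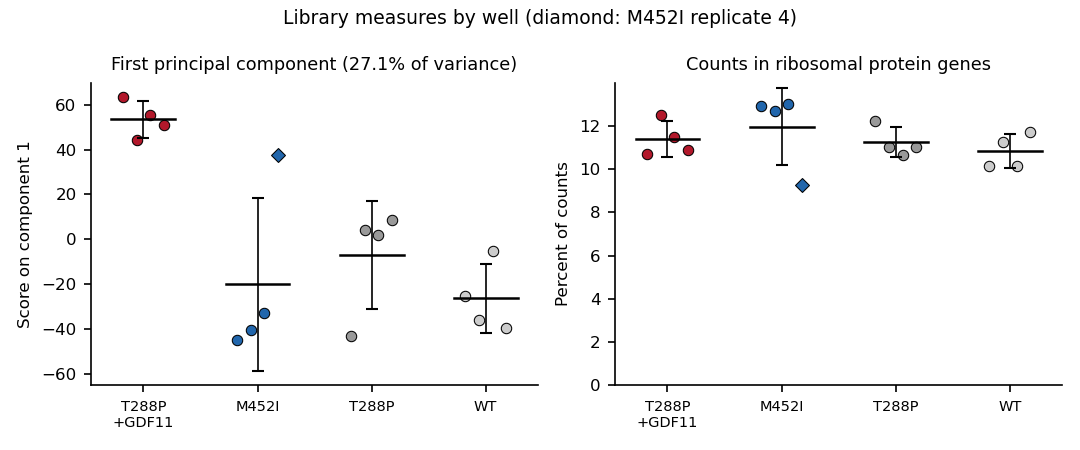
First principal component score (left) and percent of counts in ribosomal protein genes (right) for each well of T288P+GDF11, M452I, T288P and WT. Lines are means and bars are SDs of 4 wells. M452I replicate 4, the diamond, has a score of 37.5 among M452I wells at -44.7 to -32.9, and 9.281% ribosomal protein counts.

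Markers of other cell types were low in both groups. The summed level of 8 fibroblast markers was 5.83 to 8.43 CPM in T288P+GDF11 and 4.45 to 5.67 CPM in M452I, with COL1A2, COL3A1, LUM and THY1 at 0 in all 8 wells. The endothelial sum was 2.08 to 3.47 CPM in T288P+GDF11 and 0.57 to 0.905 CPM in M452I. Both endothelial markers that were tested rose: KDR was at 0.677, 0.635, 0.843 and 1.02 CPM in the T288P+GDF11 wells, against 0.0707, 0, 0 and 0.0603 CPM in the M452I wells, and PECAM1 was higher too (1.74 against 0.672 CPM, log2 fold change 1.37) but not called without T288P+GDF11 replicate 1 (edgeR adjusted p = 0.0708). The part of such transcripts in the results was not tested. The leukocyte sum was 0.093 to 1 CPM in T288P+GDF11 and 0.0877 to 0.528 CPM in M452I. Basal epithelial markers summed to 5910 to 7000 CPM in T288P+GDF11 and 7900 to 9990 CPM in M452I. The sum of 6 luminal markers was 852 to 1020 CPM in T288P+GDF11 and 1010 to 1780 CPM in M452I, most of it KRT8, KRT18 and CDH1. KRT19, another luminal keratin, stayed at or under 0.324 CPM in T288P+GDF11 and at or under 0.445 CPM in M452I.

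T288P+GDF11 wells had more transcript of fibronectin, the laminin chain LAMA3, the integrin beta-6 subunit and plasminogen regulators than M452I wells. They had less transcript of cornified envelope proteins, tight junction proteins, cholesterol synthesis enzymes and antioxidant enzymes. With edgeR's quasi-likelihood test over 16790 genes, 3558 were called at an adjusted p under 0.05, which is 21.2% of those tested. Of these, 1388 (8.27%) rose and 2170 (12.9%) fell in T288P+GDF11. A change of at least 2-fold was reached by 643 of the called genes, 406 higher and 237 lower. The median log2 fold change of all tested genes was -0.01. The wells did not overlap for 3159 genes (18.8%), with 1485 higher (8.84%) and 1674 lower (9.97%), and 2298 of these were called.

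Without M452I replicate 4, 6578 of 17278 tested genes were called (38.1%), 3006 higher (17.4%) and 3572 lower (20.7%), and 1510 changed at least 2-fold. The calls of the 16-library model were largely kept, since 3503 genes were called in both models in the same direction and 55 lost the call. The model without the well added 3030 calls among genes tested in both. In 1632 of these, M452I replicate 4 lay inside the range of the T288P+GDF11 wells, and in 1101 it lay beyond them. Of the genes called in both models, 3181 had a larger log2 fold change in size without replicate 4. Leaving out other wells lowered the count: 1661 genes were called without M452I replicate 2, 1792 without M452I replicate 1, 1991 without M452I replicate 3, 2081 without T288P+GDF11 replicate 1 and 2146 without T288P+GDF11 replicate 3.

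**Figure D2:**
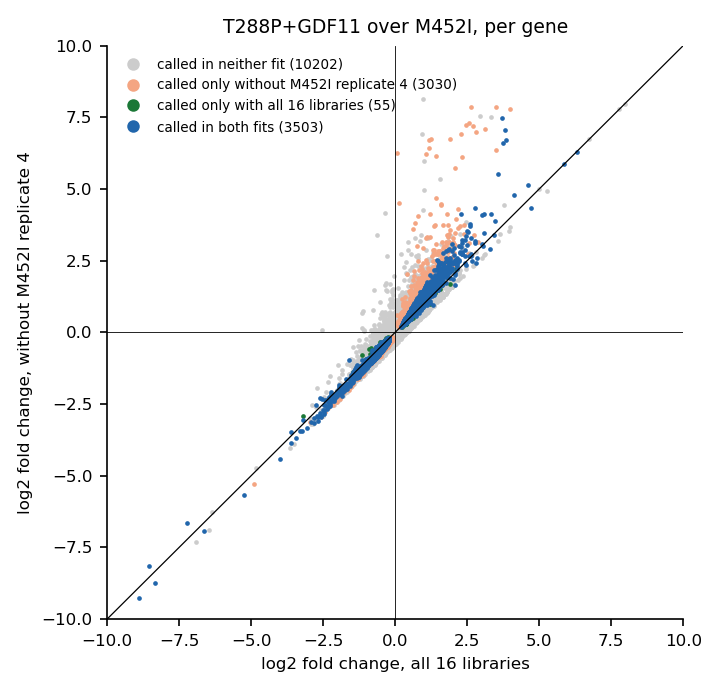
Log2 fold change of T288P+GDF11 over M452I for each gene in the model of all 16 libraries (horizontal) and in the model without M452I replicate 4 (vertical). Colours mark the 3503 genes called in both models, 3030 called only without the well, 55 called only with it and 10202 called in neither, and the line marks equal values.

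PCSK5 transcript (ENSG00000099139, chromosome 9, 75890644 to 76362339) did not separate the groups. It was at 49.3, 25.3, 42.2 and 46.3 CPM in the T288P+GDF11 wells, against 26.1, 39.4, 25.6 and 66.8 CPM in the M452I wells. The groups overlapped, and M452I replicate 4 was the highest of the 8 wells. PCSK5 averaged 40.8 ± 10.7 CPM in T288P+GDF11 and 39.5 ± 19.3 CPM in M452I (SD, n = 4 each), with a log2 fold change of 0.05 (SE 0.33, edgeR adjusted p = 0.936). Counts per gene do not tell the introduced allele from transcripts of the edited locus. Transcript of the endogenous GDF11 gene (ENSG00000135414, chromosome 12, 55743280 to 55757278) was at 7.33, 7.55, 5.95 and 7.38 CPM in the T288P+GDF11 wells, against 6.36, 5.45, 4.43 and 6.82 CPM in the M452I wells. These wells overlapped too, and GDF11 was not called (log2 fold change 0.29 with SE 0.20, edgeR adjusted p = 0.299, and 0.38 without M452I replicate 4).

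Genes known as SMAD2/3 targets in epithelial cells rose more often than they fell. Of 40 tested, 15 rose, 5 fell and 20 were not called, where 8.27% of all genes rose and 12.9% fell. The median log2 fold change was 0.33, against -0.01 over all genes. With M452I replicate 4 left out, 19 rose and 5 fell, with a median of 0.505, against 0.02 over all genes. In that model 17.4% of all genes rose and 20.7% fell. The counts of every list below are to be read beside the shares of all genes in the same model. FN1 (fibronectin, ENSG00000115414, chromosome 2, 215360440 to 215436172) showed the largest called rise of the list. It was at 283, 257, 298 and 334 CPM in the T288P+GDF11 wells, against 57.9, 59.2, 51.5 and 99.0 CPM in the M452I wells. The groups were well apart, with M452I replicate 4 nearest to the T288P+GDF11 wells, and the rise was 4.38-fold (log2 fold change 2.13 with SE 0.24, edgeR adjusted p = 7.50e-05). Without that well the log2 fold change was 2.38 (edgeR adjusted p = 9.90e-06). ITGB6, which encodes the beta subunit of the fibronectin-binding and TGF-beta-activating integrin alpha-v beta-6 (ENSG00000115221, chromosome 2, 160099666 to 160200313), was at 174, 122, 161 and 140.2 CPM in the T288P+GDF11 wells, against 46.4, 42.9, 40.9 and 67.7 CPM in the M452I wells. Its lowest T288P+GDF11 well was above its highest M452I well (log2 fold change 1.60 with SE 0.15, edgeR adjusted p = 5.42e-06, and 1.78 without M452I replicate 4).

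PMEPA1, a membrane protein that restrains SMAD2/3 signalling, was at 204, 199, 202 and 189 CPM in the T288P+GDF11 wells, against 59.5, 76.8, 66.4 and 102 CPM in the M452I wells. The T288P+GDF11 values lay close together and far above M452I (log2 fold change 1.38 with SE 0.14, edgeR adjusted p = 1.62e-05, and 1.55 without M452I replicate 4). Other members that rose were KLF10 (54.8 against 26.0 CPM, log2 fold change 1.08), LTBP2, of the latent TGF-beta binding protein family (24.2 against 8.09 CPM, log2 fold change 1.58), and IGFBP3 (109 against 36.7 CPM, log2 fold change 1.57). SMAD7, the inhibitory SMAD, rose by the narrowest margin: it was at 4.97, 5.08, 5.04 and 4.40 CPM in the T288P+GDF11 wells, against 2.97, 3.64, 3.33 and 3.08 CPM in the M452I wells, without overlap (log2 fold change 0.58 with SE 0.20, edgeR adjusted p = 0.0492). Without M452I replicate 4 its log2 fold change was 0.55 (edgeR adjusted p = 0.0541), no longer past the threshold. Leaving out any 1 of the 8 wells ended the call of SMAD7, and any well but M452I replicate 4 that of IGFBP3, with edgeR adjusted p up to 0.113 for SMAD7 and 0.105 for IGFBP3. SKIL, a repressor of SMAD signalling, averaged 126 ± 15.96 CPM in T288P+GDF11 and 98.8 ± 19.5 CPM in M452I and was not called (log2 fold change 0.35 with SE 0.15, edgeR adjusted p = 0.109), but was called without replicate 4, at 0.46 (edgeR adjusted p = 0.0261). The members that fell were SMURF1, TGIF1, BHLHE40, CDKN1A and TGFB1, and the number that fell was 2 without M452I replicate 2 and 3 without M452I replicate 1 or 3 or T288P+GDF11 replicate 1. SMURF1 is a ubiquitin ligase for SMADs and receptors (92.7 against 151 CPM, log2 fold change -0.70), and TGIF1 a co-repressor (36.1 against 52.0 CPM, log2 fold change -0.53).

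**Figure D3:**
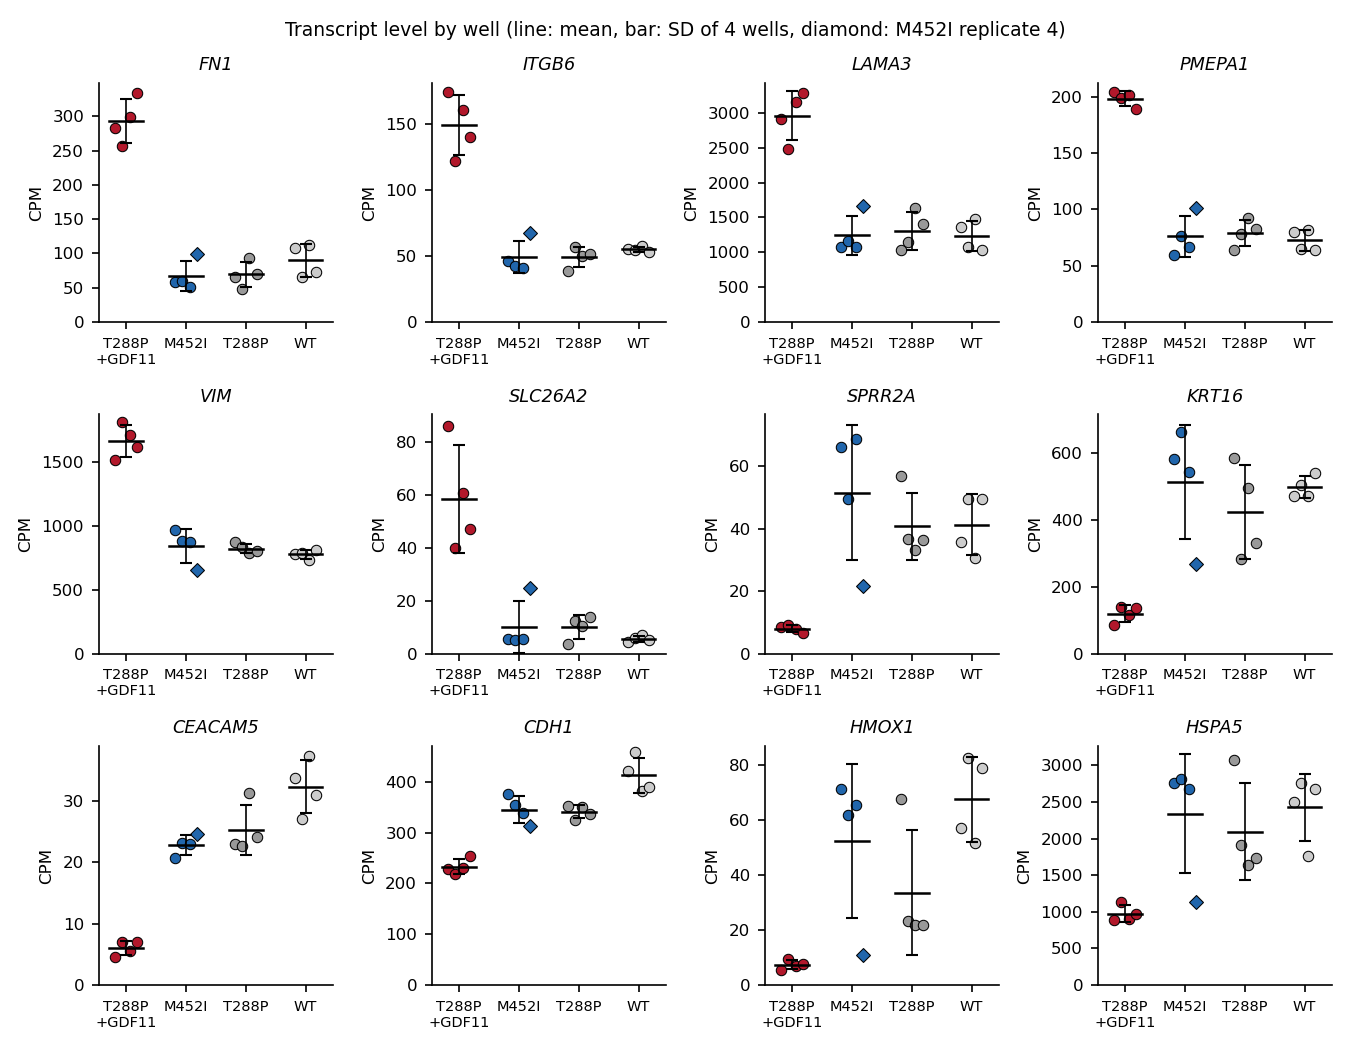
CPM of 12 transcripts in each well of T288P+GDF11, M452I, T288P and WT, with the mean as a line and the SD of 4 wells as a bar. FN1, ITGB6, LAMA3, PMEPA1, VIM and SLC26A2 are higher in the T288P+GDF11 wells, and SPRR2A, KRT16, CEACAM5, CDH1, HMOX1 and HSPA5 lower. M452I replicate 4 is the diamond.

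Among targets of the BMP arm, which runs through SMAD1 and SMAD5, ID3 rose and ID1 fell, and the other 8 of 10 tested were not called. Both encode inhibitors of helix-loop-helix transcription factors. ID3 was at 23.4, 23.5, 23.6 and 16.5 CPM in the T288P+GDF11 wells, against 9.05, 9.67, 11.0 and 11.6 CPM in the M452I wells, without overlap (log2 fold change 1.07 with SE 0.18, edgeR adjusted p = 8.56e-04, and 1.13 without M452I replicate 4). ID1 was at 191, 245, 218 and 215 CPM in the T288P+GDF11 wells, against 288.2, 314, 325 and 217 CPM in the M452I wells. M452I replicate 4 lay inside the T288P+GDF11 range for ID1 (log2 fold change -0.40 with SE 0.11, edgeR adjusted p = 0.0217), and without it the log2 fold change was -0.51 (edgeR adjusted p = 2.43e-04). Of 11 tested receptors of the family, TGFBR2, the type II TGF-beta receptor, rose and 2 fell. TGFBR2 was at 66.2, 52.97, 59.0 and 58.2 CPM in the T288P+GDF11 wells, against 24.9, 24.4, 25.6 and 52.2 CPM in the M452I wells, so that M452I replicate 4 stood just below the lowest T288P+GDF11 well (log2 fold change 0.89 with SE 0.21, edgeR adjusted p = 0.00865, and 1.24 without M452I replicate 4). The fallen receptors, ACVR1B and ACVR1C, encode type I receptors that phosphorylate SMAD2 and SMAD3 (14.03 against 18.2 CPM, log2 fold change -0.38 for ACVR1B and 1.45 against 3.01 CPM, log2 fold change -1.05 for ACVR1C). Of 11 tested ligands, BMP2 (21.0 against 16.4 CPM, log2 fold change 0.36) and MSTN (0.956 against 0.270 CPM, log2 fold change 1.78) rose, and TGFB1 (38.3 against 58.8 CPM, log2 fold change -0.62) and GDF15 (3.33 against 7.65 CPM, log2 fold change -1.20) fell. Of 8 tested secreted antagonists, edgeR called 0, with 1 at an unadjusted p under 0.05, and DESeq2 called 1. With all wells, 8.27% of all genes rose and 12.9% fell, and the counts of BMP targets and receptors were near these shares. With M452I replicate 4 left out, edgeR called 1 antagonist higher, 4 ligands higher and 2 lower, and 2 receptors higher and 3 lower. It called 1 BMP target in each direction, and 17.4% of all genes rose and 20.7% fell. The median of the antagonists was then 0.448, against 0.16 with that well. Single wells decided several of these calls: ID1, BMP2 and TGFB1 were not called without M452I replicate 1, 2 or 3 or without T288P+GDF11 replicate 1, MSTN was not called without M452I replicate 1 or 2 or T288P+GDF11 replicate 1, 2 or 3, and ACVR1B was not called without M452I replicate 1 or 2 or T288P+GDF11 replicate 2, 3 or 4 (edgeR adjusted p up to 0.163).

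Matrix genes changed in groups. Of 19 tested laminin and basement membrane genes, 6 rose and 1 fell, with a median log2 fold change of 0.23. Of 20 tested interstitial matrix genes, 6 rose and 1 fell, with a median of 0.475. Leaving out M452I replicate 4 gave counts of 8 and 2, and of 12 and 1. Without M452I replicate 1 the basement membrane count was 3 higher. LAMA3 encodes a laminin chain of the basement membrane under basal epithelial cells. LAMA3 was at 2915, 2479, 3155 and 3279 CPM in the T288P+GDF11 wells, against 1076, 1161, 1072 and 1660 CPM in the M452I wells. No well overlapped, and M452I replicate 4 was the highest M452I well (log2 fold change 1.25 with SE 0.17, edgeR adjusted p = 1.54e-04, and 1.42 without M452I replicate 4). COL4A2, COL4A1, COL7A1 and COL17A1, collagens of the basement membrane and its anchors, rose with log2 fold changes of 0.56, 0.47, 1.49 and 0.46. All but COL4A2 lost the call without M452I replicate 1 (edgeR adjusted p up to 0.0943 over all wells left out in turn). SPARC, a collagen-binding glycoprotein, rose (34.4 against 15.8 CPM, log2 fold change 1.12), as did VCAN, TNC, SPOCK1 and LOXL4, although VCAN and TNC not without T288P+GDF11 replicate 1 (edgeR adjusted p up to 0.0547 for VCAN). COL6A1, a chain of collagen VI, fell: it was at 0.912, 1.203, 0.769 and 1.36 CPM in the T288P+GDF11 wells, against 5.62, 7.06, 5.50 and 2.47 CPM in the M452I wells (log2 fold change -2.28 with SE 0.33, edgeR adjusted p = 2.39e-04, and -2.51 without M452I replicate 4).

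Of 12 tested integrin subunits, ITGB6, its partner ITGAV (145 against 92.7 CPM, log2 fold change 0.64) and ITGA6, a laminin-binding subunit (1340 against 856 CPM, log2 fold change 0.65), rose. ITGA1, a collagen-binding subunit, fell (14.6 against 18.8 CPM, log2 fold change -0.37), and 3 rose and 2 fell without M452I replicate 4. For ITGAV and ITGA6, M452I replicate 4 reached the T288P+GDF11 range. Matrix proteases and their inhibitors moved both ways, 6 higher and 4 lower of 18 tested (8 and 4 without M452I replicate 4). The higher count was 3 without M452I replicate 1 or 3 or T288P+GDF11 replicate 1 or 3, and the lower count 1 or 2 without M452I replicate 1, 2 or 3 or T288P+GDF11 replicate 1. MMP10, a stromelysin that cuts matrix proteins and pro-collagenases, was at 3.24, 7.46, 8.66 and 9.79 CPM in the T288P+GDF11 wells, against 0.318, 1.195, 0.548 and 0.603 CPM in the M452I wells. The T288P+GDF11 wells varied but all stayed above every M452I well (log2 fold change 3.44 with SE 0.50, edgeR adjusted p = 2.82e-04, and 3.39 without M452I replicate 4). MMP7 rose (3.27 against 1.096 CPM, log2 fold change 1.58), and the inhibitors TIMP1 (122 against 208 CPM, log2 fold change -0.77) and TIMP2 (48.7 against 75.7 CPM, log2 fold change -0.64) fell. Of 15 tested plasminogen activators and serpins, 6 rose and 2 fell (8 and 3 without M452I replicate 4), and 0 fell without M452I replicate 2 or T288P+GDF11 replicate 1. SERPINE2, an inhibitor of thrombin and urokinase, was at 97.3, 99.9, 107 and 80.2 CPM in the T288P+GDF11 wells, against 52.8, 49.3, 47.1 and 49.6 CPM in the M452I wells (log2 fold change 0.95 with SE 0.09, edgeR adjusted p = 6.85e-06, and 0.95 without M452I replicate 4), with M452I replicate 4 in the middle of its group. PLAU, which encodes urokinase, rose (48.6 against 29.04 CPM, log2 fold change 0.74), and PLAUR, its receptor, fell (58.1 against 84.7 CPM, log2 fold change -0.54). Without M452I replicate 2, ITGA6, ITGA1, TIMP1 and PLAUR were not called (edgeR adjusted p from 0.0509 for ITGA6 to 0.102 for PLAUR as the highest over all wells left out). PLAU shares 31.1% of its exon bases with a gene on the opposite strand, and SERPINA3 (1572 against 774 CPM, log2 fold change 1.02) shares 31.8% with one on the same strand, so their counts are uncertain.

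Hyaluronan and sulfation genes changed with the matrix genes, 5 higher and 3 lower of 16 tested (6 and 3 without M452I replicate 4). HAS3, a hyaluronan synthase (ENSG00000103044, chromosome 16, 69105564 to 69118719), had the smallest adjusted p of the genes described here. HAS3 was at 50.7, 45.8, 47.2 and 52.6 CPM in the T288P+GDF11 wells, against 117, 115, 118 and 105 CPM in the M452I wells, with little spread in either group (log2 fold change -1.21 with SE 0.08, edgeR adjusted p = 2.18e-07, and -1.25 without M452I replicate 4). HYAL1, a hyaluronidase, fell (5.44 against 10.8 CPM, log2 fold change -0.98). SULF2, which removes sulfate groups from heparan sulfate outside the cell, rose (70.6 against 32.7 CPM, log2 fold change 1.11), as did CHST3, a chondroitin sulfotransferase (62.0 against 32.4 CPM, log2 fold change 0.93), and CEMIP2 (38.0 against 25.0 CPM, log2 fold change 0.60). SLC26A2, the sulfate transporter that supplies sulfation, was at 86.0, 39.8, 60.7 and 47.1 CPM in the T288P+GDF11 wells, against 5.34, 5.00, 5.33 and 24.7 CPM in the M452I wells (log2 fold change 2.53 with SE 0.55, edgeR adjusted p = 0.00738). M452I replicate 4 was far above its group's other wells there, and without it the log2 fold change was 3.48 (edgeR adjusted p = 6.94e-05).

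Some epithelial identity genes fell, and 5 of 17 tested mesenchymal markers rose and 1 fell (7 and 1 without M452I replicate 4). Without M452I replicate 1, 2 or 3 or T288P+GDF11 replicate 3 only 3 of these markers rose. VIM, vimentin, was at 1509, 1810, 1704 and 1617 CPM in the T288P+GDF11 wells, against 963, 881, 873 and 651 CPM in the M452I wells, with replicate 4 the lowest M452I well and no overlap (log2 fold change 0.98 with SE 0.11, edgeR adjusted p = 2.99e-05, and 0.87 without M452I replicate 4). VIM shares 12.4% of its exon bases with another gene. AXL, a receptor tyrosine kinase, rose (13.4 against 8.72 CPM, log2 fold change 0.62), and SNAI1, a transcription factor that represses E-cadherin, fell (2.35 against 4.92 CPM, log2 fold change -1.07). Neither call held without M452I replicate 2, with edgeR adjusted p up to 0.0707 for AXL and 0.0677 for SNAI1. Of 13 tested epithelial splicing and transcription factors, 6 fell and 7 were not called, and 7 fell without M452I replicate 4. CDH1, E-cadherin, was at 229, 218, 229.9 and 253 CPM in the T288P+GDF11 wells, against 375, 354, 339 and 313 CPM in the M452I wells, without overlap (log2 fold change -0.57 with SE 0.08, edgeR adjusted p = 2.89e-04, and -0.62 without M452I replicate 4). ELF3, an epithelial ETS factor, was at 14.2, 18.7, 15.8 and 19.2 CPM in the T288P+GDF11 wells, against 64.5, 70.9, 59.6 and 33.3 CPM in the M452I wells (log2 fold change -1.75 with SE 0.20, edgeR adjusted p = 6.66e-05, and -1.94 without M452I replicate 4). OVOL1 (6.47 against 16.9 CPM, log2 fold change -1.38) and GRHL1 (21.0 against 28.7 CPM, log2 fold change -0.45) encode factors that maintain epithelial differentiation, and both fell. EPCAM, an epithelial adhesion molecule, averaged 114 ± 11.4 CPM in T288P+GDF11 and 127 ± 10.2 CPM in M452I and was not called with all wells (log2 fold change -0.16 with SE 0.08, edgeR adjusted p = 0.169, and -0.21 without M452I replicate 4). Over the wells left out in turn, the edgeR adjusted p of EPCAM ran from 0.0442, which is under the threshold, to 0.545. In these bulk cultures, fewer cells of a type and less RNA per cell cannot be told apart.

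Of 25 tested tight and adherens junction genes, 15 fell and 10 were not called, with a median log2 fold change of -0.365. Without M452I replicate 4, 16 fell, with a median of -0.42, and without M452I replicate 1, 9 fell. OCLN, which encodes occludin, was at 13.2, 11.5, 12.3 and 15.9 CPM in the T288P+GDF11 wells, against 40.6, 38.4, 35.1 and 23.9 CPM in the M452I wells, without overlap (log2 fold change -1.38 with SE 0.16, edgeR adjusted p = 4.80e-05, and -1.53 without M452I replicate 4). CLDN4, which encodes claudin-4, was at 71.1, 91.6, 73.4 and 84.5 CPM in the T288P+GDF11 wells, against 235, 236, 232 and 110.3 CPM in the M452I wells. M452I replicate 4 was far below the other M452I wells but above all T288P+GDF11 wells (log2 fold change -1.34 with SE 0.21, edgeR adjusted p = 5.63e-04, and -1.55 without M452I replicate 4). TJP3 (1.53 against 3.74 CPM, log2 fold change -1.28) and CTNNA1 (540.3 against 766 CPM, log2 fold change -0.50), which link junctions to actin, also fell. Of 15 tested desmosome genes, 6 fell (7, and 1 higher, without M452I replicate 4), among them DSG3 (496 against 764 CPM, log2 fold change -0.62), DSP (627 against 842 CPM, log2 fold change -0.43) and PPL (30.4 against 54.6 CPM, log2 fold change -0.84).

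Cornified envelope genes, which build the protein shell of squamous cells, had the lowest median of the lists plotted, -0.74. Lower medians were found in lists not plotted, -1.07 for 5 tested kallikrein-related genes and -0.79 for 2 peptidylarginine deiminases. Of 27 tested cornified envelope genes, 16 fell, LCE3D (3.79 against 1.58 CPM, log2 fold change 1.25) rose and 10 were not called. Without M452I replicate 4, 15 fell and 2 rose, with a median of -0.85, and 9 fell without M452I replicate 3 and 10 without T288P+GDF11 replicate 1. LCE3D was not called without any T288P+GDF11 well or M452I replicate 1 or 2 (edgeR adjusted p up to 0.123). The small proline-rich proteins (SPRR) of the chromosome 1 cluster led the fall. SPRR2A (ENSG00000241794, chromosome 1, 153056113 to 153057537) was at 8.45, 9.02, 7.81 and 6.54 CPM in the T288P+GDF11 wells, against 66.2, 49.6, 68.9 and 21.7 CPM in the M452I wells. The T288P+GDF11 wells were far below even M452I replicate 4 (log2 fold change -2.69 with SE 0.31, edgeR adjusted p = 1.13e-04, and -2.95 without M452I replicate 4). SPRR1A was at 4.09, 4.35, 4.04 and 4.68 CPM in the T288P+GDF11 wells, against 17.5, 12.9, 16.8 and 12.9 CPM in the M452I wells, and for this gene M452I replicate 4 lay within its group's range (log2 fold change -1.81 with SE 0.16, edgeR adjusted p = 2.69e-06, and -1.87 without M452I replicate 4). SPRR1B (17.8 against 49.1 CPM, log2 fold change -1.47), SPRR2D (7.31 against 29.4 CPM, log2 fold change -2.01), SPRR2E (1.51 against 8.35 CPM, log2 fold change -2.46) and SPRR3 (0.251 against 1.37 CPM, log2 fold change -2.44) fell as well. SPRR genes are close copies of each other, so reads may be shared among them and their single levels are uncertain. CSTA, a protease inhibitor of the envelope, fell (70.0 against 112 CPM, log2 fold change -0.68).

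The promoters of the SPRR genes are shown because these neighbours fell together. Promoter sequences are those of RefSeq on GRCh38.p14, 250 bases before to 50 after each gene start, and 7 of the 9 SPRR genes of the list matched. The binding motif of the AP-1 factors (JUN and FOS proteins), TGANTCA, which reads the same on both strands, was found in 6 of these 7. It was found in 2120 of all 27305 promoters (7.8%), in 4.9% of those of tested genes, in 5.7% of those of genes that rose and in 5.9% of those of genes that fell. A match of letters does not show a bound site. The SPRR genes are close copies of each other, so their promoters do not count as independent ones. A part of AP-1 factors in these changes was not tested. Each window has 60 bases on the gene's strand, with the motif in capitals, and the window of MMP10, which rose, is set beside them.
SPRR1A, chr1:152983953-152984012, plus strand: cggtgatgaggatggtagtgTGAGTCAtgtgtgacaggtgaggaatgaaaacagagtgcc
SPRR1B, chr1:153031042-153031101, plus strand: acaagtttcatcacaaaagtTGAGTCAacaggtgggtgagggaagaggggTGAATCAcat
SPRR2A, chr1:153057670-153057729, minus strand: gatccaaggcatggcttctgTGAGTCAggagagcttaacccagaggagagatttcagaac
SPRR3, chr1:153001559-153001618, plus strand: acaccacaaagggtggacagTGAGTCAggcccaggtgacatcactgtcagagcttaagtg
MMP10, chr11:102780656-102780715, minus strand: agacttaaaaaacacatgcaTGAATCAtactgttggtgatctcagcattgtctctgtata
The motif begins 108 bases before the start of SPRR1A, 141 before SPRR1B, 197 before SPRR2A, 170 before SPRR3 and 67 before MMP10.

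Transcripts of the AP-1 factors themselves were among 18 tested immediate early genes, of which 9 fell and FOS rose (9 and 2 without M452I replicate 4). The median was -0.39 with and without M452I replicate 4. FOSB (8.35 against 16.7 CPM, log2 fold change -0.998), JUN (25.6 against 42.4 CPM, log2 fold change -0.73), JUND (17.8 against 36.9 CPM, log2 fold change -1.05), FOSL1 (26.7 against 40.0 CPM, log2 fold change -0.59) and EGR1 (54.0 against 100.4 CPM, log2 fold change -0.90) fell, while FOS was higher (50.4 against 28.2 CPM, log2 fold change 0.84), a call that any well but M452I replicate 4 ended when left out (edgeR adjusted p up to 0.129). ATF3, a stress-induced partner of JUN, was at 22.4, 33.1, 23.4 and 31.8 CPM in the T288P+GDF11 wells, against 141, 176, 118 and 44.5 CPM in the M452I wells, without overlap (log2 fold change -2.12 with SE 0.38, edgeR adjusted p = 0.00257, and -2.39 without M452I replicate 4).

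Several keratins and S100 proteins of stressed squamous cells were lower in T288P+GDF11. Of 11 tested basal and stress keratins, 6 fell and KRT15 rose (677 against 455 CPM, log2 fold change 0.57), and 7 fell without M452I replicate 4. KRT16, induced in activated keratinocytes, was at 84.0, 139.6, 114 and 137 CPM in the T288P+GDF11 wells, against 580.5, 660.2, 542 and 266 CPM in the M452I wells. M452I replicate 4 was below its group and still above every T288P+GDF11 well (log2 fold change -2.11 with SE 0.27, edgeR adjusted p = 1.79e-04, and -2.32 without M452I replicate 4). KRT5, the basal keratin, was at 1660, 1856, 1718 and 1690 CPM in the T288P+GDF11 wells, against 2213, 2262, 2227 and 2371 CPM in the M452I wells, with replicate 4 the highest M452I well (log2 fold change -0.39 with SE 0.09, edgeR adjusted p = 0.00453, and -0.37 without M452I replicate 4). KRT14, its partner, averaged 69.0 ± 4.88 CPM in T288P+GDF11 and 88.6 ± 6.87 CPM in M452I and was not called (log2 fold change -0.36 with SE 0.14, edgeR adjusted p = 0.0728, and -0.38 without M452I replicate 4). Of 16 tested S100 genes, 4 fell, S100A3 rose (5.07 against 2.84 CPM, log2 fold change 0.84) and 11 were not called, and 8 fell and 1 rose without M452I replicate 4. S100A9 and S100A8 form calprotectin. S100A9 was at 18.5, 24.6, 21.3 and 20.1 CPM in the T288P+GDF11 wells, against 148, 137, 147 and 40.5 CPM in the M452I wells (log2 fold change -2.48 with SE 0.39, edgeR adjusted p = 0.00114, and -2.77 without M452I replicate 4), and S100A8 at 1.41, 0.722, 0.918 and 0.341 CPM in the T288P+GDF11 wells, against 4.35, 5.47, 5.13 and 1.87 CPM in the M452I wells (log2 fold change -2.31 with SE 0.39, edgeR adjusted p = 9.28e-04, and -2.55 without M452I replicate 4). Both were lower without overlap, and S100P also fell (137 against 422 CPM, log2 fold change -1.62). Among 13 tested CEACAM and mucin genes, 4 fell and 1 rose, against 3 and 4 without M452I replicate 4. CEACAM5, carcinoembryonic antigen, was at 4.62, 6.96, 5.58 and 7.10 CPM in the T288P+GDF11 wells, against 20.7, 23.1, 22.9 and 24.6 CPM in the M452I wells, and here M452I replicate 4 lay close to the other M452I wells (log2 fold change -1.91 with SE 0.14, edgeR adjusted p = 7.64e-07, and -1.88 without M452I replicate 4).

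Of 12 tested luminal lineage genes, 7 fell and 5 were not called, and 7 fell and 2 rose without M452I replicate 4. KRT8, a luminal keratin, was at 262, 336, 308 and 302 CPM in the T288P+GDF11 wells, against 742, 719.5, 667 and 277 CPM in the M452I wells. M452I replicate 4 lay inside the T288P+GDF11 range (log2 fold change -0.99 with SE 0.26, edgeR adjusted p = 0.0151), and without it the log2 fold change was -1.23 (edgeR adjusted p = 2.07e-04). Without M452I replicate 1, 2 or 3 or T288P+GDF11 replicate 1, KRT8 was not called (edgeR adjusted p up to 0.0639). FOXA1, a luminal pioneer factor (6.26 against 12.1 CPM, log2 fold change -0.95), ERBB3, a receptor of the EGF receptor family (33.6 against 54.7 CPM, log2 fold change -0.70), and TFAP2A (100 against 158 CPM, log2 fold change -0.66) fell. TFAP2A shares 16.7% of its exon bases with another gene. Among 12 tested basal lineage factors, SOX9 (144 against 74.0 CPM, log2 fold change 0.96) and CALD1 rose with all wells, and 6 rose without M452I replicate 4. TP63, the basal master regulator, was at 33.3, 28.2, 30.4 and 30.1 CPM in the T288P+GDF11 wells, against 15.7, 15.4, 17.5 and 47.5 CPM in the M452I wells. Replicate 4 was the highest of the 8 wells. TP63 was not called with all wells (log2 fold change 0.34 with SE 0.31, edgeR adjusted p = 0.461) and was called without replicate 4, at 0.91 (edgeR adjusted p = 4.70e-04).

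Secreted signals changed selectively. Of 20 tested chemokines and cytokines, 5 rose and 1 fell (5 and 2 without M452I replicate 4). CXCL1, a neutrophil chemokine, was at 109.7, 116, 112 and 83.9 CPM in the T288P+GDF11 wells, against 32.3, 31.5, 40.1 and 57.8 CPM in the M452I wells, without overlap (log2 fold change 1.38 with SE 0.20, edgeR adjusted p = 2.91e-04, and 1.60 without M452I replicate 4). CXCL8 was at 184, 215, 191 and 176 CPM in the T288P+GDF11 wells, against 112, 126, 113 and 135 CPM in the M452I wells (log2 fold change 0.66 with SE 0.13, edgeR adjusted p = 0.00253, and 0.71 without M452I replicate 4), and CXCL3 (29.9 against 12.4 CPM, log2 fold change 1.27) and CXCL2 (9.22 against 4.49 CPM, log2 fold change 1.04), close copies of CXCL1, rose too. The NF-kB targets SOD2 (357 against 210.0 CPM, log2 fold change 0.76), TNFAIP2 (7.99 against 2.55 CPM, log2 fold change 1.65) and BIRC3 (168 against 123 CPM, log2 fold change 0.46) rose, but 5 of 17 tested NF-kB feedback genes fell against 4 that rose. The number of these that fell was 1 without M452I replicate 1 or 2, 2 without M452I replicate 3 or T288P+GDF11 replicate 3 or 4, 3 without T288P+GDF11 replicate 1 and 8 without M452I replicate 4, where 5 rose. Of 11 tested interleukin-1 family genes, 4 fell (4, and 2 higher, without M452I replicate 4), led by IL33 (12.7 against 32.1 CPM, log2 fold change -1.34), and 1 or 2 fell without M452I replicate 1, 2 or 3 or T288P+GDF11 replicate 1 or 3. EGF receptor ligands were lower for HBEGF (33.6 against 76.8 CPM, log2 fold change -1.19), EREG (97.5 against 177 CPM, log2 fold change -0.86) and EPGN (77.0 against 130.3 CPM, log2 fold change -0.76), and 5 of 15 tested ligands and receptors fell while BTC rose (2.21 against 1.07 CPM, log2 fold change 1.05), against 5 lower and 2 higher without M452I replicate 4. BTC was called only with all wells, without M452I replicate 4 or without T288P+GDF11 replicate 2 (edgeR adjusted p up to 0.105). Of 25 tested interferon response genes, OASL (2.99 against 6.398 CPM, log2 fold change -1.09) and OAS1 (8.44 against 13.7 CPM, log2 fold change -0.70) fell. This share is below the 12.9% of all genes that fell. Of these interferon genes 3 fell and 2 rose without M452I replicate 4, also below the 20.7% and 17.4% of all genes. OAS1 was not called without M452I replicate 1 or 2 or T288P+GDF11 replicate 3 (edgeR adjusted p up to 0.0607).

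Wnt genes moved both ways, 6 higher and 3 lower of 23 tested (8 and 3 without M452I replicate 4), with a median of 0.43. The higher count was 2 without M452I replicate 1, 1 without M452I replicate 2, and 3 without M452I replicate 3 or T288P+GDF11 replicate 1. SFRP1, a secreted inhibitor of Wnt (183 against 84.7 CPM, log2 fold change 1.11), and DKK1, another (79.7 against 50.4 CPM, log2 fold change 0.66), rose with the ligand WNT5A (2.21 against 0.527 CPM, log2 fold change 2.05), and the ligand WNT7B fell (12.2 against 26.1 CPM, log2 fold change -1.10). In the Notch pathway the ligand JAG1 (51.8 against 26.1 CPM, log2 fold change 0.99) and the target HES1 (36.2 against 27.5 CPM, log2 fold change 0.40) rose, and the receptors NOTCH3 (5.995 against 12.1 CPM, log2 fold change -1.01) and NOTCH1 (15.7 against 19.6 CPM, log2 fold change -0.32) fell, of 14 genes tested (3 higher and 1 lower without M452I replicate 4). Without M452I replicate 2, DKK1, WNT5A, HES1 and NOTCH1 were not called, nor was NOTCH1 without M452I replicate 4, with edgeR adjusted p up to 0.0673, 0.0555, 0.0682 and 0.103 over the wells left out. Of 18 tested YAP targets, 3 rose and 6 fell, while the median was 0.07. Of these targets 7 rose and 6 fell without M452I replicate 4, 1 rose without M452I replicate 1, 2 or 3 or T288P+GDF11 replicate 3, and 3 fell without M452I replicate 1 or 2. Of 26 tested genes of contractile actin and myosin, 15 fell and CALD1 rose, with a median of -0.46, and 17 fell and 2 rose without M452I replicate 4. ACTG1, cytoplasmic gamma actin (5312 against 10940 CPM, log2 fold change -1.04), VCL, vinculin (189 against 268 CPM, log2 fold change -0.51), TPM4, a tropomyosin (943 against 1421 CPM, log2 fold change -0.59), and MYH14, a non-muscle myosin (7.65 against 15.7 CPM, log2 fold change -1.04), fell. Actin genes have many processed copies in the genome, which can share their reads.

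Of 28 tested S phase genes, 6 rose and 1 fell (8 and 4 without M452I replicate 4), with MCM3 (15.4 against 6.57 CPM, log2 fold change 1.23) and PCNA (20.3 against 14.4 CPM, log2 fold change 0.49) higher and RRM2, a subunit of ribonucleotide reductase, lower (51.2 against 85.7 CPM, log2 fold change -0.74). Of 30 tested genes of G2 and mitosis, 1 rose and 3 fell, a share below that of all genes with all wells. Without M452I replicate 4, 7 rose and 4 fell, where 17.4% of all genes rose and 20.7% fell. CDC20, an activator of the anaphase-promoting complex, was at 29.7, 38.5, 31.0 and 36.2 CPM in the T288P+GDF11 wells, against 115, 119, 105 and 48.0 CPM in the M452I wells (log2 fold change -1.51 with SE 0.27, edgeR adjusted p = 0.00171, and -1.74 without M452I replicate 4). MKI67, the proliferation marker, was at 50.8, 31.5, 48.7 and 46.7 CPM in the T288P+GDF11 wells, against 50.7, 52.4, 49.6 and 67.1 CPM in the M452I wells, overlapping and not called (log2 fold change -0.31 with SE 0.14, edgeR adjusted p = 0.114, and -0.20 without M452I replicate 4). Among 22 tested p53 targets, 4 rose and 5 fell (6 and 7 without M452I replicate 4), and 2 rose and 3 fell without M452I replicate 1, 2 or 3 or T288P+GDF11 replicate 1. CDKN1A, which encodes the inhibitor p21, was lower (209 against 327 CPM, log2 fold change -0.64), with M452I replicate 4 in the T288P+GDF11 range. Its call ended without M452I replicate 1, 2 or 3 or T288P+GDF11 replicate 1 (edgeR adjusted p up to 0.0663), and the S phase count fell to 3 higher without each of the same wells.

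Many stress response genes fell, and M452I replicate 4 was at or near the T288P+GDF11 level for the mean of each of these lists. Of 22 tested NRF2 oxidative stress genes, 15 fell and 7 were not called, with a median of -0.50. In the model without replicate 4, 17 fell, with a median of -0.63. The mean log2 CPM of this list was 6.03 to 6.26 in T288P+GDF11, 6.76 to 6.91 in M452I replicates 1 to 3 and 6.22 in replicate 4. HMOX1, heme oxygenase 1, was at 5.47, 9.50, 6.87 and 7.81 CPM in the T288P+GDF11 wells, against 71.4, 61.9, 65.4 and 10.7 CPM in the M452I wells, with M452I replicate 4 just above the T288P+GDF11 wells (log2 fold change -2.82 with SE 0.55, edgeR adjusted p = 0.00444, and -3.15 without M452I replicate 4). TXNRD1, thioredoxin reductase, was at 131, 127, 131 and 131 CPM in the T288P+GDF11 wells, against 281, 302, 249 and 202 CPM in the M452I wells, and its M452I wells were all above the T288P+GDF11 wells (log2 fold change -0.99 with SE 0.13, edgeR adjusted p = 1.12e-04, and -1.09 without M452I replicate 4). NQO1 (83.4 against 123 CPM, log2 fold change -0.56) and AKR1C1 (427 against 869 CPM, log2 fold change -1.03), enzymes that reduce quinones and carbonyls, fell. FTH1, ferritin heavy chain, fell (2475 against 6008 CPM, log2 fold change -1.28), but it shares 62.4% of its exon bases with a gene on the opposite strand.

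Of 20 tested genes of the unfolded protein response, 12 fell and 8 were not called. Without replicate 4, 19 fell, and the median was -0.51, against -0.38 with it. Without M452I replicate 1, 2 or 3 the count was 3, 3 or 4, and without T288P+GDF11 replicate 1 or 3 it was 7 or 6. The list level was 6.98 to 7.15 in T288P+GDF11, 7.59 to 7.62 in M452I replicates 1 to 3 and 7 in replicate 4. HSPA5, the main chaperone of the endoplasmic reticulum, was at 884, 1135, 901 and 971 CPM in the T288P+GDF11 wells, against 2753, 2807, 2671 and 1133 CPM in the M452I wells. Replicate 4 lay inside the T288P+GDF11 range (log2 fold change -1.27 with SE 0.25, edgeR adjusted p = 0.003, and -1.50 without M452I replicate 4). In the integrated stress response 9 of 17 tested fell, 10 without M452I replicate 4 and 5 without M452I replicate 1 or 2. DDIT3, the factor CHOP, was at 14.6, 22.1, 18.2 and 16.2 CPM in the T288P+GDF11 wells, against 74.9, 73.3, 63.4 and 18.3 CPM in the M452I wells (log2 fold change -1.69 with SE 0.41, edgeR adjusted p = 0.0123, and -1.99 without M452I replicate 4), again with replicate 4 among the T288P+GDF11 wells. PPP1R15A, which restores translation after stress, fell (60.1 against 161 CPM, log2 fold change -1.42). Of 16 tested heat shock protein genes, 8 fell. The count was 13 without M452I replicate 4, 1 without M452I replicate 1 or 2, 2 without M452I replicate 3 or T288P+GDF11 replicate 1, 3 without T288P+GDF11 replicate 3 and 4 without T288P+GDF11 replicate 4.

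Cholesterol synthesis and uptake had the highest share of called members of the lists plotted, with 19 of 25 lower, against 12.9% of all genes. PMVK, an enzyme of the pathway, rose (13.7 against 9.74 CPM, log2 fold change 0.49), although not without M452I replicate 1 or 2 or T288P+GDF11 replicate 3 (edgeR adjusted p up to 0.0757), and 5 were not called. The median was -0.61, and -0.72 without M452I replicate 4, where 20 fell. Leaving out any other well left 15 to 19 lower. The list level was 6.26 to 6.38 in T288P+GDF11, 7 to 7.07 in M452I replicates 1 to 3 and 6.49 in replicate 4, so the wells did not overlap. SREBF1 and SREBF2 encode the factors that switch the pathway on. SREBF1 was at 69.8, 71.0, 61.3 and 63.0 CPM in the T288P+GDF11 wells, against 132, 136, 119 and 98.4 CPM in the M452I wells (log2 fold change -0.87 with SE 0.13, edgeR adjusted p = 2.91e-04, and -0.96 without M452I replicate 4), and SREBF2 at 136, 134, 130.2 and 140.3 CPM in the T288P+GDF11 wells, against 226, 221, 207 and 149.8 CPM in the M452I wells (log2 fold change -0.57 with SE 0.11, edgeR adjusted p = 0.0021, and -0.69 without M452I replicate 4). Both fell without overlap, with M452I replicate 4 the lowest M452I well. Of 15 tested fatty acid synthesis genes, 5 fell (7 without M452I replicate 4), among them SCD (1861 against 3250 CPM, log2 fold change -0.80) and FASN (279 against 458 CPM, log2 fold change -0.71), and ELOVL6 rose (36.9 against 28.4 CPM, log2 fold change 0.38), which was not called without M452I replicate 1, 2 or 3 or T288P+GDF11 replicate 1 or 3 (edgeR adjusted p up to 0.135). Of 31 tested glycolysis and hypoxia genes, 13 fell, among them HK2 (136 against 249 CPM, log2 fold change -0.87) and the glucose carrier SLC2A1 (96.1 against 164 CPM, log2 fold change -0.77), and CA12 rose (201 against 101 CPM, log2 fold change 0.99). The count of glycolysis genes was 18 without M452I replicate 4, 6 without M452I replicate 1, 2 or 3, 7 without T288P+GDF11 replicate 1 or 3 and 8 without T288P+GDF11 replicate 4.

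Nuclear genes of oxidative phosphorylation and cytosolic ribosomal protein genes gained the most calls among the lists when M452I replicate 4 was left out. Of 54 tested oxidative phosphorylation genes, 15 fell with all wells, 48 without replicate 4, with medians of -0.35 and -0.49, and 1 to 4 without any other M452I well or T288P+GDF11 replicate 1, 3 or 4. Of 78 tested ribosomal protein genes, edgeR called 0 with all wells, with 41 lower at an unadjusted p under 0.05, while DESeq2 called 2 lower and limma-voom 0. Without replicate 4, edgeR called all 78 lower, with a median of -0.49. The ribosomal protein list was at 9.80 to 10.12 in T288P+GDF11, 10.42 to 10.45 in M452I replicates 1 to 3 and 9.59 in replicate 4, on the scale of mean log2 CPM. Replicate 4 was thus below all T288P+GDF11 wells. Ribosomal protein genes have many processed copies, and their counts are uncertain. Of 13 mitochondrially encoded transcripts, edgeR called 0, with 4 lower at an unadjusted p under 0.05, and DESeq2 and limma-voom called 0. With M452I replicate 4 left out, edgeR called MT-CYB higher, with a log2 fold change of 0.45 (edgeR adjusted p = 7.82e-04).

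**Figure D4:**
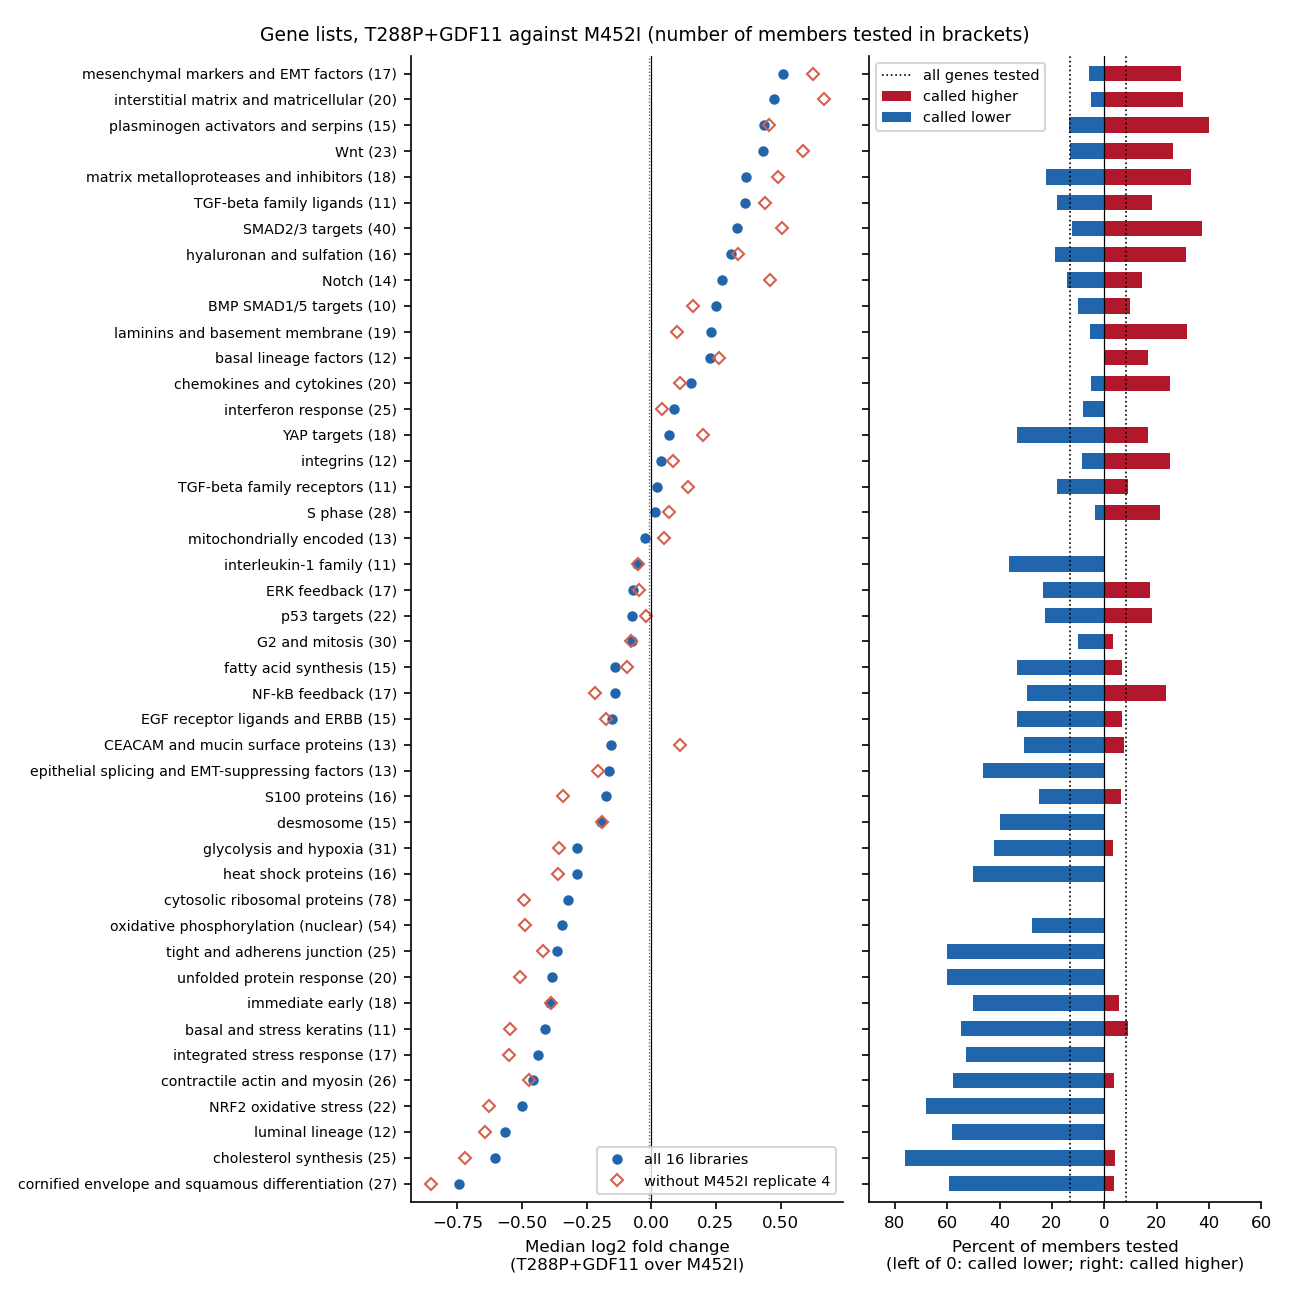
Left, median log2 fold change of 44 of the 58 gene lists with all 16 libraries (circles) and without M452I replicate 4 (diamonds), with the number of members tested in brackets. Right, percent of members called higher and lower with all libraries, with dotted lines at 8.27% and 12.9% for all genes. The lists plotted were chosen after their values were seen, leaving out other cell types and lists mostly described elsewhere. Their medians run from -0.74 for cornified envelope genes to 0.51 for mesenchymal markers.

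**Figure D5:**
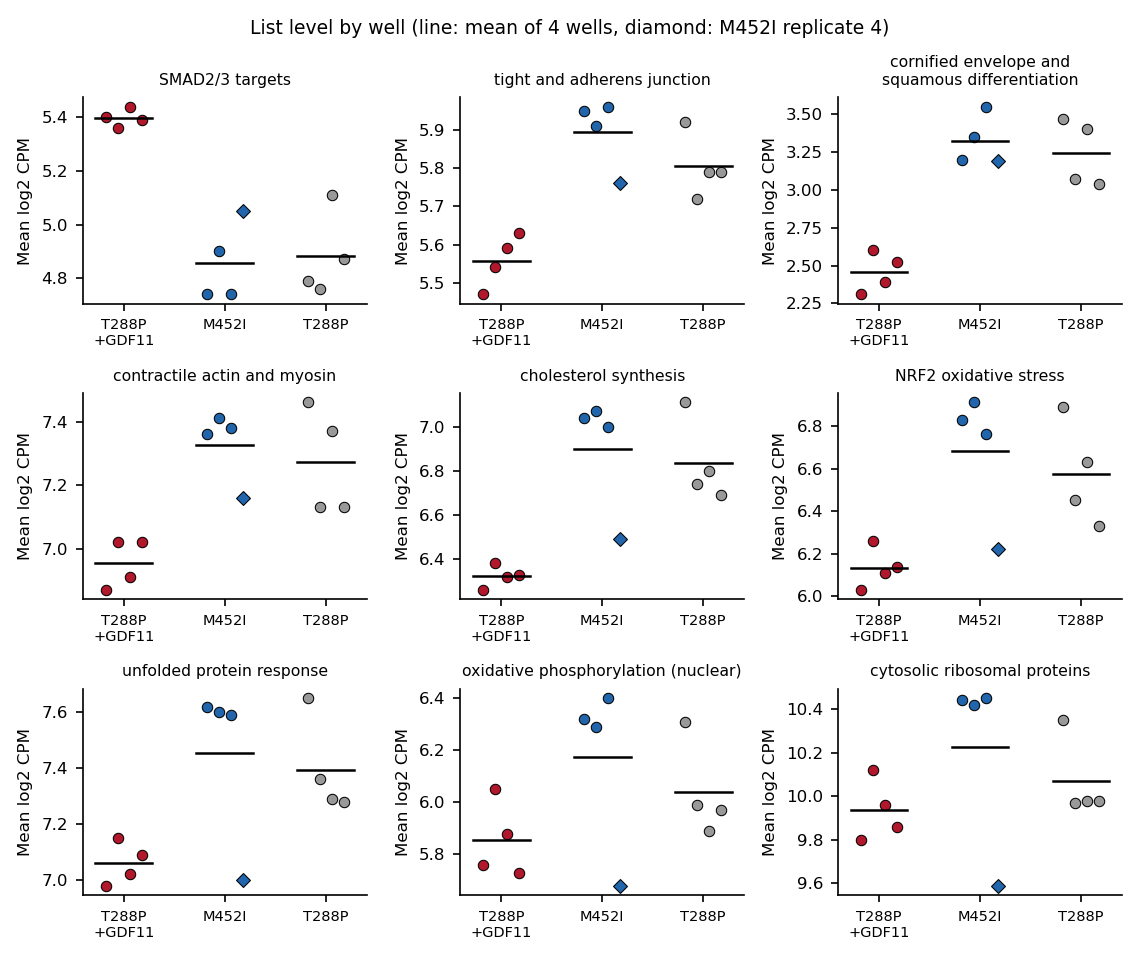
Mean log2 CPM of 9 gene lists in each well of T288P+GDF11, M452I and T288P, with the mean as a line and an axis range of its own in each panel. M452I replicate 4, the diamond, is within or below the T288P+GDF11 range for the NRF2 oxidative stress, unfolded protein response, oxidative phosphorylation and ribosomal protein lists. It is with the other M452I wells for the cornified envelope list.

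Besides MMP10, SLC26A2 and FN1, the 12 largest rises without overlap among genes averaging at least 3 CPM in the higher group were led by SCG5, which encodes the chaperone 7B2 of the convertase PCSK2. SCG5 was at 3.85, 7.42, 7.14 and 8.96 CPM in the T288P+GDF11 wells, against 0.177, 0.167, 0.373 and 0.845 CPM in the M452I wells, from 5 to 28 counts per M452I well (log2 fold change 4.12 with SE 0.93, edgeR adjusted p = 0.00736, and 4.78 without M452I replicate 4). ZBED2, a zinc finger transcription factor, was at 19.6, 16.02, 17.4 and 12.1 CPM in the T288P+GDF11 wells, against 0.636, 1.75, 1.12 and 7.24 CPM in the M452I wells, with M452I replicate 4 above its group (log2 fold change 2.60 with SE 0.68, edgeR adjusted p = 0.0163, and 3.78 without M452I replicate 4). It was not called without M452I replicate 2 or 3 (edgeR adjusted p up to 0.0642). MRGPRX3, a G protein-coupled receptor, was at 25.9, 15.6, 24.1 and 17.6 CPM in the T288P+GDF11 wells, against 1.80, 3.42, 2.35 and 7.30 CPM in the M452I wells (log2 fold change 2.48 with SE 0.39, edgeR adjusted p = 7.24e-04, and 3.04 without M452I replicate 4). CDH19, a cadherin, was at 80.3, 55.1, 71.7 and 68.3 CPM in the T288P+GDF11 wells, against 10.7, 14.2, 9.12 and 28.7 CPM in the M452I wells (log2 fold change 2.13 with SE 0.33, edgeR adjusted p = 9.42e-04, and 2.60 without M452I replicate 4). The remaining rises were those of DCDC2C (21.7 against 3.93 CPM, log2 fold change 2.47), SLC35F3 (5.93 against 1.18 CPM, log2 fold change 2.33), ADAMTS6, a secreted metalloprotease (7.73 against 1.54 CPM, log2 fold change 2.32), NREP (5.85 against 1.24 CPM, log2 fold change 2.24) and PALMD (3.41 against 0.737 CPM, log2 fold change 2.21). Among the 12 largest falls not yet described were KRT23, a keratin (3.70 against 14.01 CPM, log2 fold change -1.92), and TMPRSS15, enteropeptidase, at 0.912, 1.44, 0.149 and 0.930 CPM in the T288P+GDF11 wells, against 5.76, 5.00, 5.13 and 1.69 CPM in the M452I wells (log2 fold change -2.35 with SE 0.67, edgeR adjusted p = 0.0234, and -2.62 without M452I replicate 4). TMPRSS15 was not called without M452I replicate 1, 2 or 3 or T288P+GDF11 replicate 1 or 3 (edgeR adjusted p up to 0.0675). Its M452I replicate 4 was close to the highest T288P+GDF11 well.

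Some genes with large changes were called in the edgeR model without M452I replicate 4 and not in that of all 16 libraries. For these, that well lay in or near the T288P+GDF11 range. THBS1, thrombospondin 1, was at 774, 615, 685 and 575 CPM in the T288P+GDF11 wells, against 176, 135, 168 and 628 CPM in the M452I wells. The first 3 M452I wells were far below, and replicate 4 was level with T288P+GDF11. With all wells THBS1 was not called (log2 fold change 1.26 with SE 0.43, edgeR adjusted p = 0.0547), and without replicate 4 its log2 fold change was 2.05 (edgeR adjusted p = 9.78e-05). BICC1, an RNA-binding protein, was at 9.15, 7.79, 10.2 and 7.25 CPM in the T288P+GDF11 wells, against 1.096, 0.611, 0.877 and 6.997 CPM in the M452I wells (log2 fold change 1.85 with SE 0.68, edgeR adjusted p = 0.0646), and reached 3.32 (edgeR adjusted p = 8.21e-05) without replicate 4. FREM2, a basement membrane adhesion protein, FIRRE, a nuclear long RNA, MGAM2 and STEAP2 were the other 4 of the 6 highest, with log2 fold changes without replicate 4 of 2.37, 1.99, 1.89 and 1.88. The 6 lowest were BBC3, which encodes the cell death protein PUMA, DYNLRB1, CDKN2D, ZNF140, TRAPPC2B and IRF7, between -0.998 and -0.82. Of the 17 alternative settings, THBS1 was called in 7 and BICC1 in 5, some of which kept M452I replicate 4. MGAM2, DYNLRB1 and TRAPPC2B were called in 2.

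Untreated wells of the T288P line place the values, although they share the T288P+GDF11 wells with a second comparison and so give no independent support. T288P+GDF11 against untreated T288P called 2174 of 16790 genes (12.9%), 851 higher (5.07%) and 1323 lower (7.88%). M452I against untreated T288P called 1 gene with edgeR, SMPD4BP, which was lower in M452I (log2 fold change -1.18 with SE 0.15, edgeR adjusted p = 0.00513) and was named after its value was seen. At an unadjusted p under 0.05, 366 genes passed in that comparison. M452I against T288P was run only with all wells, M452I replicate 4 among them. Its count of calls therefore does not show that the 2 lines are alike. T288P replicate 1 also stood apart, with a first component score of -43 against 2.1 to 8.8 in the other T288P wells, and without it T288P+GDF11 against T288P called 1028 genes. That comparison called 1195 genes without T288P+GDF11 replicate 1 or replicate 3.

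Side by side, FN1 had a log2 fold change of 2.13 against M452I and of 2.08 (edgeR adjusted p = 7.92e-05) against untreated T288P, where it averaged 69.4 ± 18.7 CPM. ITGB6 had 1.60 against M452I and 1.60 (edgeR adjusted p = 5.19e-06) against T288P. SPRR1A had -1.81 against M452I and -1.68 (edgeR adjusted p = 5.19e-06) against T288P. HAS3 and CEACAM5 also had values close to each other, -1.21 against M452I and -1.22 (edgeR adjusted p = 2.05e-07) against T288P for HAS3, and -1.91 against M452I and -2.06 (edgeR adjusted p = 2.38e-07) against T288P for CEACAM5. Other genes were called against M452I and not against T288P. KRT8 had -0.99 against M452I and -0.66 (edgeR adjusted p = 0.105) against T288P. DDIT3 had -1.69 against M452I and -1.23 (edgeR adjusted p = 0.0631) against T288P. Whether these differences differ from each other was not tested. For cholesterol synthesis, 19 members fell against M452I and 16 against T288P. The counts were 15 and 12 for NRF2 genes, 12 and 6 for the unfolded protein response, and 15 and 2 for oxidative phosphorylation. WT wells, with no GDF11, averaged 89.8 ± 23.9 CPM of FN1, 41.3 ± 9.64 CPM of SPRR2A and 67.5 ± 15.5 CPM of HMOX1 (SD, n = 4).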

How the data were processed

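Transcripts were measured by poly(A)-selected, paired-end sequencing (NovaSeq) in 16 libraries, 4 wells in each of 4 groups. The authors deposited whole-number counts per gene, not normalized. Per the submitters' processing notes, HISAT2 and StringTie 2.2.1 were used with GRCh38. The counting step, the annotation release and the use of strand were not given in the sources used here, so reads of overlapping genes cannot be assigned. Groups were taken from the library titles. All columns of the table were matched to a library, and 0 were left unused. Library totals were 28.5 to 50.8 M counts over all groups, and the 16790 tested genes held at least 99.89% of the counts of a library.

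Tests ran in R 4.3.3 with edgeR 4.0.16: TMM normalization, filterByExpr (minimum count 10), robust dispersions and the quasi-likelihood F test in 1 model of all 16 libraries with no covariate. P-values were adjusted by Benjamini-Hochberg over all tested genes, with calls at an adjusted p under 0.05. CPM is counts per M, scaled with the TMM factors. SE was obtained from F, as the ratio of the absolute log2 fold change to its square root. List levels are means of log2 CPM with a prior count of 2. The scripts were tested on simulated data. Gene positions came from GENCODE release 29 (GRCh38), where 93.1% of tested genes were found.

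The contrast, the 58 gene lists and the rule for named genes were chosen with earlier results of these data known. The rule took PCSK5 and GDF11. Of called genes with a symbol, no overlap between wells and 3 CPM or more on average in the group with the higher level, it took the 12 highest and 12 lowest log2 fold changes. It took 6 and 6 in the same way among genes called only without M452I replicate 4. For each list the called members of lowest adjusted p were taken, 4 at most, other members being named with the list. SMAD7, SKIL, PMEPA1, CDH1, KRT5, KRT14, KRT8, VIM, MKI67, TP63 and EPCAM were taken regardless of the test. SMPD4BP lies outside the rule. A few genes chosen this way were left out of the text.

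Alternatives were DESeq2 1.42.0, limma-voom (limma 3.58.1), RLE factors, no low-count filter, a filter at 50 counts in 4 libraries, a fit restricted to the 2 groups, a block for the replicate number, at least a 2-fold change, and leaving out each well. Fits without T288P replicate 1, with and without M452I replicate 4, were added after seeing the data.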

Additional observations from a re-analysis of the deposited data

Results flagged for a closer look

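In each group of 4 wells, the gap between the most extreme well and its nearest neighbour was divided by the range of the group, for 69 genes and 44 lists described in the text. A ratio above the 95% critical value of Dixon's test for 4 values marked a well as far from the others. Chance marks about 1 in 20 groups, and genes of 1 well are not independent. Some of the genes were taken because they were called only without M452I replicate 4. BICC1, THBS1, FIRRE, MGAM2, STEAP2 and DYNLRB1 are among these. Their marks in M452I were partly fixed by that choice, so the share expected by chance does not apply to them.

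In T288P+GDF11, 5 of 69 genes and 3 of 44 lists were marked, spread over all 4 wells. GDF11 was low in replicate 3, at 5.953 CPM, and SLC35F3 was low in replicate 1, at 5.561 CPM. TXNRD1 was low in replicate 2, at 127.2 CPM against 131.3 to 131.4 CPM in the other wells. SMAD7, at 4.4 CPM, and ID3, at 16.52 CPM, were low in replicate 4. On the scale of mean log2 CPM, replicate 1 was high for TGF-beta family ligands, at 2.74, and for basal lineage factors, at 3.96, and replicate 4 was low for genes of G2 and mitosis, at 4.4.

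In M452I, 20 of 69 genes and 7 of 44 lists were marked, and in all 27 cases the well was replicate 4. It was the high well for ZBED2 at 7.239 CPM, SLC26A2 at 24.73 CPM, PALMD at 1.689 CPM, FN1 at 98.99 CPM, BICC1 at 6.997 CPM and THBS1 at 628.1 CPM. It was also high for FIRRE at 8.536 CPM, MGAM2 at 3.469 CPM, STEAP2 at 5.218 CPM, LAMA3 at 1660 CPM and TGFBR2 at 52.24 CPM. MKI67, a proliferation marker, was high at 67.11 CPM, and TP63 at 47.53 CPM. Replicate 4 was the low well for HMOX1 at 10.74 CPM, S100A9 at 40.48 CPM, SPRR2D at 14.87 CPM, DYNLRB1 at 17.1 CPM and KRT8 at 276.8 CPM. It was low too for CLDN4 at 110.3 CPM and HSPA5 at 1133 CPM.

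Among lists, replicate 4 was high for plasminogen activators and serpins, at a mean log2 CPM of 4.98. It was low for p53 targets at 4.94, the unfolded protein response at 7, the integrated stress response at 4.97 and cholesterol synthesis at 6.49. Oxidative phosphorylation genes at 5.68 and cytosolic ribosomal protein genes at 9.59 were low in it as well. The part of this well in the results was not tested.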

How the results depend on the processing

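With T288P+GDF11 against M452I, DESeq2 called 4408 genes, limma-voom 4014, RLE factors 3426, no low-count filter 2400 and the stricter filter 3538, against 3558. A model of only the 2 groups called 2261, and 643 of the called genes changed at least 2-fold. The balance of rises and falls also depended on the setting. Of the genes called, 39% rose in the main model, 46.1% with DESeq2, 47% with limma-voom and 44.8% with RLE factors. The share was 47.8% with no low-count filter, 46.4% with the stricter filter and 48.5% with only the 2 groups. It was 34.4% to 45.7% on leaving out each well. Leaving out each well gave 1661 to 6578 calls, the highest without M452I replicate 4, and 6941 were called without both M452I replicate 4 and T288P replicate 1. Without M452I replicate 4, 1510 genes changed at least 2-fold, and leaving out a further well gave 5232 to 6580 calls. T288P+GDF11 against T288P had 410 changes of at least 2-fold, 1391 calls with no low-count filter and 1028 to 1912 on leaving out each well. The replicate numbers did not pair the wells: deviations of same-numbered T288P+GDF11 and M452I wells correlated at -0.013 to 0.103, and wells 1 and 3 matched another number better than their own. With the replicate block 3164 genes were called, 5910 without M452I replicate 4, and 1836 against T288P. Of 200 called genes named by the rule, 158 were called in every setting, of 17, that gave a value, and 42 lost the call in at least 1. Of the 19 named genes not called with all wells, 16 were called in at least 1 setting. PCSK5, not called with all wells, had log2 fold changes of -0.09339 to 0.4221 on leaving out each well: -0.08586 without M452I replicate 1, -0.09339 without M452I replicate 3, -0.05692 without T288P+GDF11 replicate 1, -0.02079 without T288P+GDF11 replicate 4 and 0.4221 without M452I replicate 4. The cause of these shifts was not tested. With 4 wells from 1 line per allele, the data do not measure variation between lines.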

Other observations

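Ephrin and axon guidance genes moved both ways, with 5 higher and 4 lower of 28 tested. The higher count was 8 without M452I replicate 4, 1 or 2 without M452I replicate 1, 2 or 3 or T288P+GDF11 replicate 1 or 3, and the lower count 2 without M452I replicate 2 or T288P+GDF11 replicate 1 or 3. EPHB3 was at 9.03, 9.04, 10.2 and 9.45 CPM in the T288P+GDF11 wells, against 26.6, 24.9, 22.4 and 16.9 CPM in the M452I wells, lower in T288P+GDF11 without overlap (log2 fold change -1.27 with SE 0.13, edgeR adjusted p = 1.04e-05, and -1.39 without M452I replicate 4). EPHA2, another ephrin receptor, fell to 178 CPM, against 355 CPM in M452I, and SEMA3C, a secreted semaphorin, rose (81.9 against 59.0 CPM, log2 fold change 0.47). Of 31 tested lysosomal genes, 3 rose and 6 fell. The count that fell was 11 without M452I replicate 4, where 5 rose, 4 without T288P+GDF11 replicate 2, 3 without T288P+GDF11 replicate 4 and 2 without any other well. CTSC, a lysosomal protease that activates serine proteases, rose (162 against 72.3 CPM, log2 fold change 1.16), as did CTSV (122 against 83.7 CPM, log2 fold change 0.54), while NPC1, the lysosomal cholesterol exporter, fell (121 against 209.7 CPM, log2 fold change -0.79). Of 5 tested kallikrein-related genes, KLK5 (3.01 against 7.77 CPM, log2 fold change -1.36) and KLK10 (0.640 against 1.78 CPM, log2 fold change -1.47) fell, and SPINK5, an inhibitor of KLK5, rose (10.1 against 6.69 CPM, log2 fold change 0.59), against 3 lower and 1 higher without M452I replicate 4. Without T288P+GDF11 replicate 1 or 3 SPINK5 was not called (edgeR adjusted p up to 0.0525).

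Amino acid carriers included a rise of SLC1A1, a glutamate carrier (18.9 against 8.31 CPM, log2 fold change 1.18), and a fall of SLC6A6, the taurine carrier (25.3 against 41.2 CPM, log2 fold change -0.70), among 14 tested, of which 3 rose and 2 fell, and 6 rose without M452I replicate 4. CDKN1C, an inhibitor of cyclin-dependent kinases, fell (16.9 against 27.1 CPM, log2 fold change -0.69), one of 3 CDK inhibitor genes that fell and 1 that rose among 14 tested (5 and 3 without M452I replicate 4). Of 15 tested genes of HLA class I presentation, HLA-B fell (48.9 against 69.6 CPM, log2 fold change -0.51), with single wells ending its call (edgeR adjusted p up to 0.122 over all alternatives). That is below the 12.9% of all genes that fell, and without M452I replicate 4, 5 of the 15 fell and 1 rose. FAP, a membrane protease used as a marker of activated fibroblasts, rose (22.9 against 5.41 CPM, log2 fold change 2.08), while the fibroblast collagen COL3A1 was at 0 in all 8 wells.

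Of 17 tested ERK feedback genes, 3 rose and 4 fell with all wells, against 4 and 7 without M452I replicate 4, and 1 rose without M452I replicate 1, 2 or 3. DUSP5, a phosphatase that acts on ERK, fell (203 against 515 CPM, log2 fold change -1.34). Of 7 tested proprotein convertases and partners, 2 rose and 1 fell, also without M452I replicate 4. Only 1 rose without M452I replicate 1, 2 or 3 or T288P+GDF11 replicate 1 or 3. FURIN, with a log2 fold change of 0.297, was not called without each of these wells (edgeR adjusted p up to 0.128). Of 2 peptidylarginine deiminases PADI1 fell (1.23 against 2.94 CPM, log2 fold change -1.25), both being lower without M452I replicate 4. Among 5 metallothioneins 2 fell, against 4 lower and 1 higher without M452I replicate 4, and 0 fell without M452I replicate 1 or 2. Of 16 nuclear long RNAs and small nucleolar RNA hosts 4 fell, against 11 lower and 1 higher without M452I replicate 4, and 0 fell without M452I replicate 1 or T288P+GDF11 replicate 3.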
